A study of Mus musculus with 8 samples.

Results

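The nuclear genes for the subunits of respiratory complexes II, III and IV, of ATP synthase (complex V) and for cytochrome c were examined in ventricles of NAE1CKO mice and of littermate control (CTL) mice. Members were taken by gene name among the protein-coding genes of the count table, and 49 of 21775 protein-coding genes (40690 genes in all) met the rule. They comprise 4 genes of complex II, 9 of complex III, 1 for cytochrome c, 18 of complex IV and 17 of complex V. Another 6 genes with matching names are processed pseudogenes and were left out. The name rule also takes Atp5sl, a factor for complex I assembly, Atp5s, a coupling factor, and Cox7a2l, a gene like that of subunit 7a and known as a factor of supercomplexes.

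NAE1CKO mice carry a floxed Nae1, the gene for the regulatory part of the enzyme that activates NEDD8, and αMHCCre, a transgene active in cardiomyocytes, on the C57BL/6J background. Both groups were sampled at postnatal day 1 (P1). The labels give the control genotype as wild type, and no source used here says whether control mice carried the floxed gene or the transgene. The RNA came from minced ventricles, in which the other cells keep Nae1, so fewer cells of a type and less RNA per cell cannot be told apart. Each group has 4 libraries of polyadenylated RNA, named by their titles. Values below are in the order KO-443-3, KO-443-5, then KO-453-6, KO-453-7 for NAE1CKO, and WT-443-7, WT-443-8, then WT-453-3, WT-453-5 for CTL. The labels do not say what the first number of a title stands for.

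Complex II oxidises succinate and complex III passes electrons from ubiquinol to cytochrome c, from which complex IV reduces oxygen to water. The proton gradient that complexes I, III and IV build drives ATP synthase. Most subunits are encoded in the nucleus by 1 gene each, but subunits 6a, 7a and 8 of complex IV exist in a heart isoform, made in heart and skeletal muscle, and a liver isoform found in most tissues. In rodents the heart isoforms replace the liver isoforms in the heart around birth and afterwards.

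The total count was 16304420 to 18593509 per library in NAE1CKO and 13932821 to 18056322 in CTL. Nae1 was at 10.6 to 13.2 CPM (the count relative to library size, scaled by TMM) in NAE1CKO libraries and 22.3 to 24.1 CPM in CTL libraries, for a log2 change of -0.96 ± 0.0869 (SE, edgeR quasi-likelihood test, adjusted p = 7.18e-06). Cardiomyocyte markers were abundant in both groups, with a summed level of 53727 to 56082 CPM for 12 genes in NAE1CKO and 53357 to 63330 CPM in CTL, and 3 of the 12 were lower and 1 was higher. Of 13 macrophage markers, 12 were higher in NAE1CKO and 1 was not called, with sums of 158 to 216 CPM in NAE1CKO and 106 to 116 CPM in CTL. Of 9 fibroblast markers 5 were lower and 4 not called, with sums of 3149 to 3642 CPM in NAE1CKO and 3499 to 4208 CPM in CTL. Of 5 atrial markers 2 (Nppa and Myl4) were higher and 3 not called, with sums of 1833.5 to 3046 CPM in NAE1CKO and 796 to 989 CPM in CTL. The 3 not called, Sln, Myl7 and Bmp10, were fitted lower, at -0.64, -0.21 and -0.80 on the log2 scale. Of 5 endocardial markers 3 were higher and 2 not called, with sums of 164 to 207 CPM in NAE1CKO and 111 to 152 CPM in CTL, and Nrg1 at a log2 fold change of 2.55. Of 7 smooth muscle and pericyte markers 2 were higher (Cnn1 at 2.53 and Tagln at 2.21 on the log2 scale), 3 were lower and 2 not called, with sums of 1033 to 1194 CPM in NAE1CKO and 979 to 1053 CPM in CTL. Of 9 endothelial markers 3 were higher, 2 lower and 4 not called, and 1 of 5 epicardial (Krt19) and 1 of 7 erythroid markers (Slc4a1) were higher. Over all genes tested, 17.6% were lower and 18.6% were higher, so 1 call in a short list is near the general share. The part of these markers in the results below was not tested. In WT-453-5 the gene Gm42418 took 12.8% of the counts, against 3.09% to 4.62% in the other 7 libraries. Without WT-453-5, 41 of the members below were lower in place of 42.

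The promoters of isoforms of complex IV are shown because heart and liver isoforms are where the members part from each other. That of Cox6a2 was not analysed here. Each sequence is given on the strand of its gene in GRCm38.p6 (RefSeq), 5′ to 3′, with 250 bases before and 50 from the start site on. Of the 49 genes, 38 were matched in the table of promoters, with 42 windows. Capitals mark matches, on either strand, to the 7 motifs given further on. The windows are chr7:30183921-30184220 on the plus strand for Cox7a1 (heart), chr9:79759804-79760103 on the minus strand for Cox7a2 (liver), chr7:140900397-140900696 on the minus strand for Cox8b (heart), chr19:7217567-7217866 on the minus strand for Cox8a (liver) and chr5:115348909-115349208 on the minus strand for Cox6a1 (liver).
Cox7a1: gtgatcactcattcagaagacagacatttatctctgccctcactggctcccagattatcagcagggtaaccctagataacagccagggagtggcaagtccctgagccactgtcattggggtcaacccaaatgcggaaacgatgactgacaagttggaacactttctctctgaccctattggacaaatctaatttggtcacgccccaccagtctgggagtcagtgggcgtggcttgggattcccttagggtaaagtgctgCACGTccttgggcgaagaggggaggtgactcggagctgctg
Cox7a2: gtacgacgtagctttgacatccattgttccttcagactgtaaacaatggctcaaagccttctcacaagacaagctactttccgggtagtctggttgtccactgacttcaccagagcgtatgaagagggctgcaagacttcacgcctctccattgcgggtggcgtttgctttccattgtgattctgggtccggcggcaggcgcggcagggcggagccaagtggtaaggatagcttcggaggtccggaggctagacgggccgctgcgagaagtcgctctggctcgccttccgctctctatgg
Cox8b: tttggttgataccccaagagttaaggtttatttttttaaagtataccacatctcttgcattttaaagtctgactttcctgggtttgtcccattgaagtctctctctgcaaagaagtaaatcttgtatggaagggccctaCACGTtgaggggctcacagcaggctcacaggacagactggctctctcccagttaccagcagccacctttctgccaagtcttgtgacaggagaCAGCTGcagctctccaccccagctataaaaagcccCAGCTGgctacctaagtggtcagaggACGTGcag
Cox8a: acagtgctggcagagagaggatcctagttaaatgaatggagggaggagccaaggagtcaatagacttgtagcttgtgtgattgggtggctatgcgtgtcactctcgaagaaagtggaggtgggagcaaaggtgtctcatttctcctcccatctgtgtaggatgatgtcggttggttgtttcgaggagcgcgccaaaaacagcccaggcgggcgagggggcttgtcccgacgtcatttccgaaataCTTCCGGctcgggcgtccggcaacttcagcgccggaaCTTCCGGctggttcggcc
Cox6a1: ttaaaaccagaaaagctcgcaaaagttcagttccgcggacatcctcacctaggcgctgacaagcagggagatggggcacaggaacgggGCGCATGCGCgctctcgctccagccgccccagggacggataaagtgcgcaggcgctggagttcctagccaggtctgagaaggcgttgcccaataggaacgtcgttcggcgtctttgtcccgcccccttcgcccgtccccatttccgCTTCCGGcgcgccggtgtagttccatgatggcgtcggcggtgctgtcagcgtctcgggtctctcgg

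Of the 49 members, 47 passed the filter on low counts. Cox8c had 0 counts in all 8 libraries, where 3 counts is the limit that 0 allows, and Cox7b2 had 0 to 2 counts per library. Both encode testis isoforms. Of the 47, 42 (89.4%) were lower in NAE1CKO at an adjusted p under 0.05 and 0 were higher, against 17.6% of 13622 genes tested that were lower and 18.6% that were higher. DESeq2 and limma-voom also called 0 higher, and at an unadjusted p under 0.05 in edgeR 1 was higher, Cox8a. The median log2 fold change was -0.33 over the members and -0.001 over all genes tested. The 5 members that were not called are Cycs, Cox6a1, Cox8a, Atp5d and Atp5g2. Exons of 12 members overlap a gene on the other strand, and since the strand setting of the counting is not known, reads of such pairs cannot be told apart. In 39 members every NAE1CKO library was below every CTL library, against 17.9% of all genes tested, and 1 member, Cox8a, had every NAE1CKO library above every CTL library, against 18.6%.

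**Figure D1:**
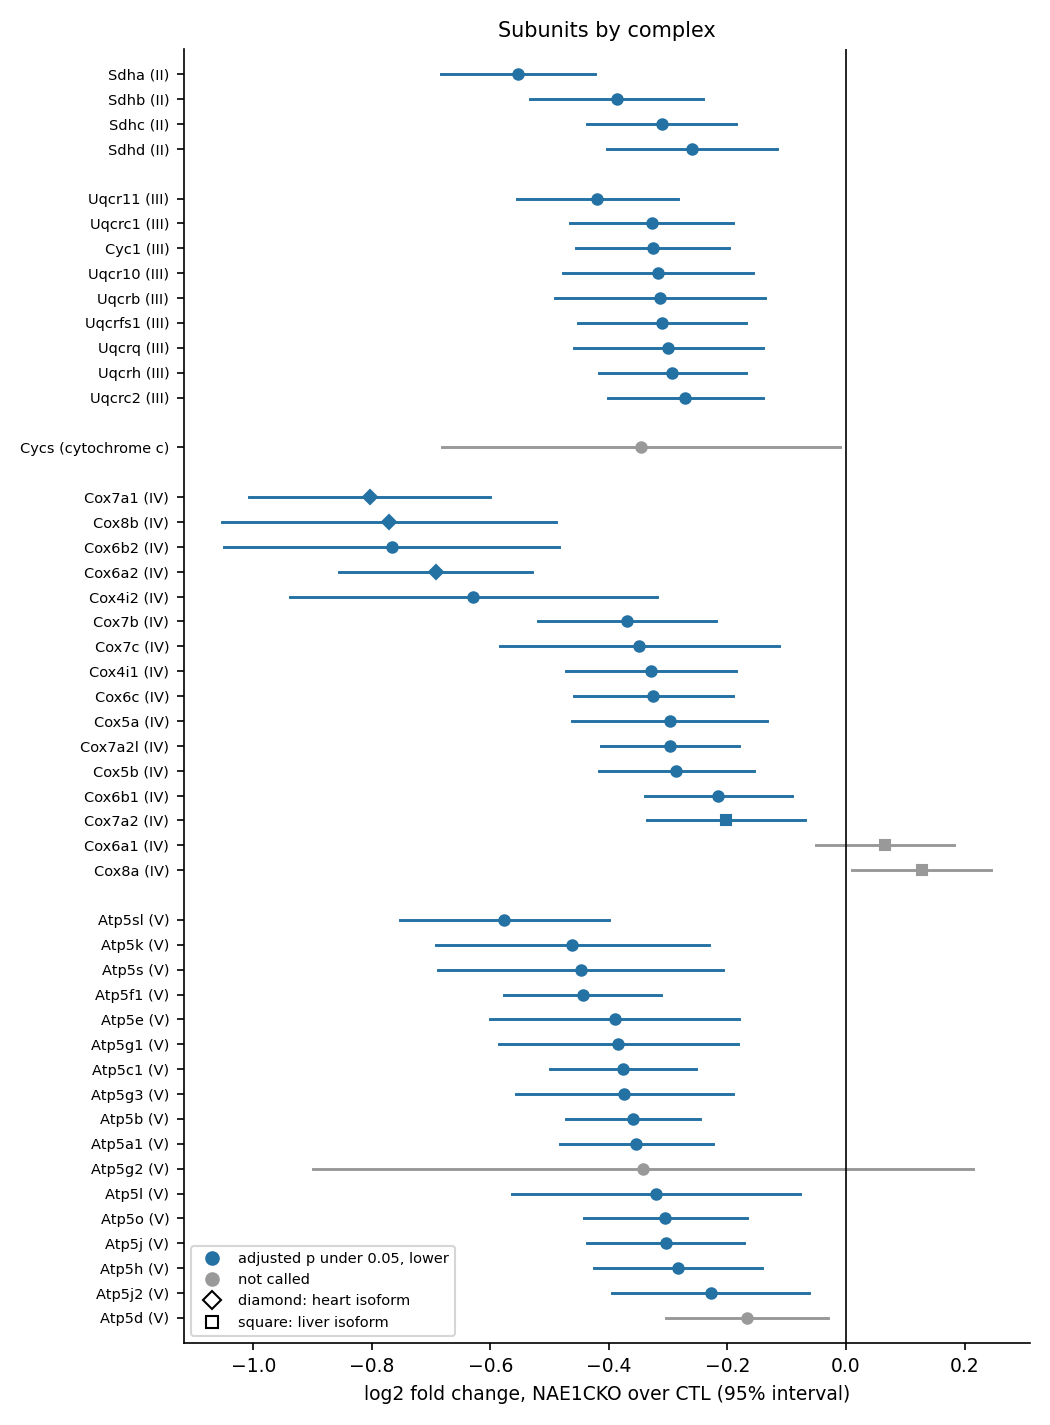
Log2 fold change of NAE1CKO over CTL (x axis) for the 47 members tested, by complex (y axis), with 95% intervals from the fit across all genes. Blue points passed an adjusted p of 0.05 and grey ones did not. The 3 heart isoforms (diamonds) lie between -0.80 and -0.69, and 2 of the 3 liver isoforms (squares) lie above 0.

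Most changes were modest. At a further limit of 1.5-fold, 5 members were lower (5.56% of all genes tested pass both limits), all of them in complex IV. The members together took 2.65%, 2.85%, 2.79% and 2.55% of the counts in NAE1CKO libraries and 3.21%, 3.38%, 3.45% and 2.92% in CTL libraries. Their summed level was 26357 ± 1514 CPM in NAE1CKO and 33346 ± 1489.8 CPM in CTL (SD, n = 4 each), a ratio of 0.79. The ratio of the sums was 0.738 in complex II, 0.803 in complex III, 0.811 in complex IV and 0.787 in complex V.

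The NAE1CKO libraries differed among themselves. The median over the members of the log2 level minus the CTL mean was -0.40 in KO-443-3, -0.26 in KO-443-5, -0.26 in KO-453-6 and -0.45 in KO-453-7, and lay between -0.09 and 0.08 in the CTL libraries. KO-443-3 and KO-453-7, of different title numbers, were thus the lower pair. Between the KO-443 and WT-443 libraries the median log2 fold change of the members was -0.29, with 44 of 47 below 0, and between the KO-453 and WT-453 libraries it was -0.39, with 45 below 0. The difference between the numbers was called for 0 of the 47 members and 0 of all genes tested by edgeR, and 1307 of all genes were at an unadjusted p under 0.05.

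**Figure D2:**
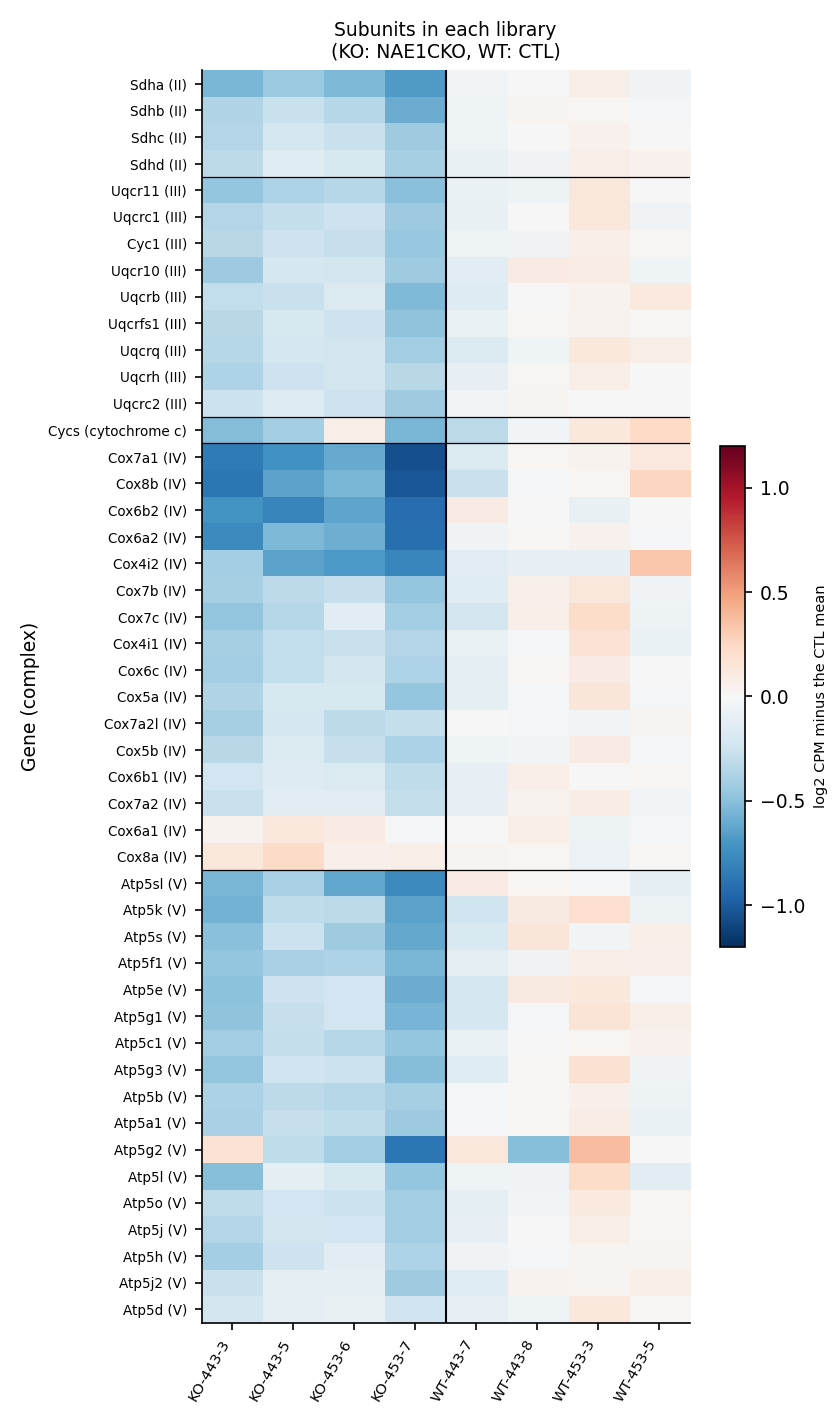
Log2 CPM minus the CTL mean for each of the 47 members (y axis, by complex) in each library (x axis, NAE1CKO left of the line and CTL right of it). Blue is lower and red higher than the CTL mean. The columns of KO-443-3 and KO-453-7 are darkest, with medians of -0.40 and -0.45, and Cox8a is pale red in all 4 NAE1CKO libraries and Cox6a1 in all but KO-453-7, where it is at -0.01.

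All 4 subunits of complex II, the enzyme that links the citric acid cycle to the respiratory chain, were lower in NAE1CKO. Sdha (ENSMUSG00000021577, chromosome 13, 74322254 to 74350280 of GRCm38), the flavoprotein that oxidises succinate, had 1046, 1123, 1056 and 954 CPM in NAE1CKO libraries and 1493, 1539.6, 1612 and 1486 CPM in CTL libraries. The groups were far apart, with a log2 fold change of -0.55 ± 0.0597 (SE, edgeR, adjusted p = 2.63e-05). Sdhb, the iron-sulfur subunit, had 437, 464, 442 and 371 CPM in NAE1CKO and 539.8, 575, 571 and 556 CPM in CTL, and its fold change was -0.39 ± 0.0674 on the log2 scale (SE, edgeR, adjusted p = 0.000824). The membrane anchors moved less. Sdhc, the least abundant of the 4, was at 324 ± 21.7 CPM in NAE1CKO and 402 ± 12.1 CPM in CTL (SD, n = 4 each), and the log2 fold change was -0.31. Sdhd was at 385 ± 30.2 CPM in NAE1CKO and 461 ± 25.4 CPM in CTL, and the log2 fold change was -0.26. With scaling by library size alone Sdhd was no longer called (edgeR, adjusted p = 0.0611), against an adjusted p of 0.00841 with TMM. The 95% intervals of Sdha (-0.68 to -0.42) and Sdhd (-0.40 to -0.12) do not overlap. The difference between subunits itself was not tested.

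All 9 members of complex III were lower, within a narrow range of log2 fold changes from -0.42 to -0.27 and a median of -0.31. In each of them every NAE1CKO library was below every CTL library. Uqcr11, a small accessory subunit, moved most, with 224, 239, 243 and 217 CPM in NAE1CKO libraries and 291, 295, 338 and 309 CPM in CTL libraries (log2 fold change -0.42 ± 0.0621, SE, edgeR, adjusted p = 0.000273). The catalytic chain and the core moved with the accessory subunits. Cyc1, cytochrome c1, had 1069.9, 1136, 1111 and 983 CPM in NAE1CKO and 1299, 1309.5, 1420.1 and 1364 CPM in CTL, and the log2 fold change was -0.33 (edgeR, adjusted p = 0.00108). Uqcrc1, core protein 1 and the most abundant by CPM, had 1098, 1147, 1180.3 and 1037 CPM in NAE1CKO and 1313, 1396, 1533 and 1359 CPM in CTL, also a log2 fold change of -0.33 (edgeR, adjusted p = 0.00163). The Rieske iron-sulfur protein gene Uqcrfs1, which passes the first electron on, was at -0.31 and Uqcrc2 at -0.27 on the same log2 scale. Uqcrb was the least abundant, at 44.8 ± 4.51 CPM in NAE1CKO and 55.7 ± 4.32 CPM in CTL (SD, n = 4 each), and 74.5% of the 50-base words of its transcripts are found in no transcript of another gene. Its exons and those of Uqcrc2 overlap antisense genes.

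Cytochrome c, the carrier between complexes III and IV, is encoded in somatic cells by Cycs. It was listed at 11.2, 12.1, 16.8 and 11.0 CPM in NAE1CKO libraries and 12.8, 15.7, 17.6 and 18.9 CPM in CTL libraries. The groups overlap and the difference was not called (log2 fold change -0.35 ± 0.153, SE, edgeR, adjusted p = 0.0999). It was called lower under 3 of 20 alternatives, among them without KO-453-6 (edgeR, adjusted p = 0.0107) and without WT-443-7 (edgeR, adjusted p = 0.039). Only 73.9% of its 50-base words are found in no transcript of another gene, so its count is uncertain.

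Complex IV split by isoform. Of its 16 members tested 14 were lower, with log2 fold changes from -0.80 to 0.13, the widest range of the complexes. The 3 heart isoforms fell most strongly among the abundant subunits, while the liver isoforms of the same subunits were slightly lower (Cox7a2) or fitted above 0 (Cox6a1, Cox8a).

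Subunit 6a, whose heart isoform Cox6a2 binds adenine nucleotides in cattle, showed the split at the highest level. Cox6a2 (ENSMUSG00000030785, chromosome 7, 128205435 to 128206387) had 637, 741, 719 and 578 CPM in NAE1CKO libraries and 1051, 1089.8, 1118 and 1060.4 CPM in CTL libraries. The groups were far apart, and the log2 fold change was -0.69 ± 0.0748 (SE, edgeR, adjusted p = 2.63e-05). Its exons overlap those of Itgad on the other strand. Cox6a1 (ENSMUSG00000041697, chromosome 5, 115345642 to 115348981) had 624, 661, 649 and 599 CPM in NAE1CKO and 608, 636, 581 and 595 CPM in CTL. These groups overlap, and the difference was not called (log2 fold change 0.07, 95% interval -0.05 to 0.18, edgeR, adjusted p = 0.363).

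Cox7a1 (ENSMUSG00000074218, chromosome 7, 30184144 to 30186078), the heart isoform of subunit 7a, had 92.3, 100.4, 109 and 79.8 CPM in NAE1CKO libraries and 147, 168, 171 and 180.1 CPM in CTL libraries. At -0.80 ± 0.0928 it had the largest fitted decrease of the 47 members (log2, SE, edgeR, adjusted p = 5.43e-05). The liver isoform Cox7a2 (ENSMUSG00000032330, chromosome 9, 79755361 to 79759878) had 299, 331, 330.3 and 295 CPM in NAE1CKO and 337, 371, 384 and 352 CPM in CTL. Its log2 fold change of -0.20 passed the test with all libraries (edgeR, adjusted p = 0.0213). It was lost without KO-443-3 (edgeR, adjusted p = 0.0712), KO-453-7 (0.0511), WT-443-8 (0.0508) or WT-453-3 (0.0628), and with scaling by library size alone (0.219).

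Cox8b (ENSMUSG00000025488, chromosome 7, 140898945 to 140900446), the heart isoform of subunit 8, had 105, 122, 131 and 93.6 CPM in NAE1CKO libraries and 159, 189.9, 194 and 228 CPM in CTL libraries, for a log2 change of -0.77 ± 0.126 (SE, edgeR, adjusted p = 0.00107). The liver isoform Cox8a (ENSMUSG00000035885, chromosome 19, 7215153 to 7217616) had 552, 587, 525 and 531 CPM in NAE1CKO and 514, 512, 478 and 505 CPM in CTL. Every NAE1CKO library was above every CTL library, but by little, and the log2 fold change of 0.13 (95% interval 0.01 to 0.24) was not called (edgeR, adjusted p = 0.084). Cox8a was called higher under 2 of 20 alternatives, one of them scaling by library size alone (log2 fold change 0.21, edgeR, adjusted p = 0.0285). Under that scaling the median of all genes moves to 0.08 and 67.5% of all calls are higher, against 51.4% with TMM.

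**Figure D3:**
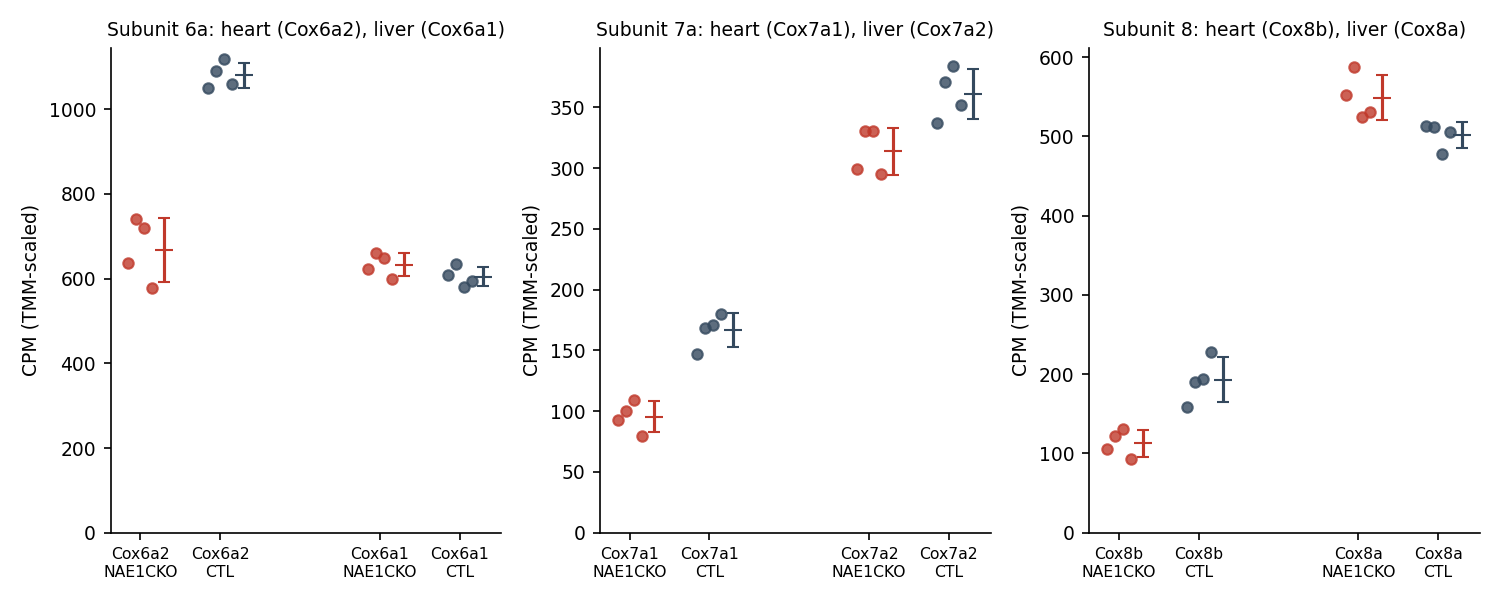
CPM (y axis, from 0) of the heart and liver isoforms of subunits 6a, 7a and 8 in NAE1CKO (red) and CTL (dark) libraries, each point 1 library, with the mean ± SD beside the points. For each heart isoform the groups lie apart. Of the liver isoforms, Cox6a1 overlaps between groups at 599 to 661 CPM in NAE1CKO and 581 to 636 CPM in CTL. The groups of Cox7a2 (NAE1CKO below CTL) and Cox8a (NAE1CKO above CTL) lie apart by little.

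A ratio of 2 genes within a library does not depend on the scaling between libraries. The count ratio of Cox6a2 to Cox6a1 was 1.02, 1.12, 1.11 and 0.964 in NAE1CKO libraries and 1.73, 1.71, 1.93 and 1.78 in CTL libraries. That of Cox7a1 to Cox7a2 was 0.309, 0.304, 0.331 and 0.271 in NAE1CKO and 0.437, 0.454, 0.445 and 0.512 in CTL. That of Cox8b to Cox8a was 0.190, 0.208, 0.249 and 0.176 in NAE1CKO and 0.309, 0.371, 0.406 and 0.451 in CTL. None of the 3 ratios overlaps between groups. The differences in log2 ratio were -0.76 for subunit 6a, -0.61 for 7a and -0.90 for 8, each with p = 0.0286 in a two-sided exact permutation test, the smallest that 4 against 4 libraries allow, and 0.0476 after adjustment over the 5 ratios tested. In the order of subunits 6a, 7a and 8 the differences were -0.69, -0.54 and -0.77 between the KO-443 and WT-443 libraries, and -0.84, -0.67 and -1.03 between the KO-453 and WT-453 libraries.

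Per kilobase of exon, the count of Cox6a2 was 1.09 ± 0.0766 times that of Cox6a1 in NAE1CKO and 1.85 ± 0.0999 times in CTL (SD, n = 4 each). Cox7a1 was at 0.535 ± 0.0440 of Cox7a2 in NAE1CKO and 0.815 ± 0.0600 in CTL. Cox8b was at 0.354 ± 0.0546 of Cox8a in NAE1CKO and 0.661 ± 0.103 in CTL. At P1 the heart isoform was thus the more abundant only for subunit 6a, on average in both groups, with KO-453-7 at a count ratio under 1.

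**Figure D4:**
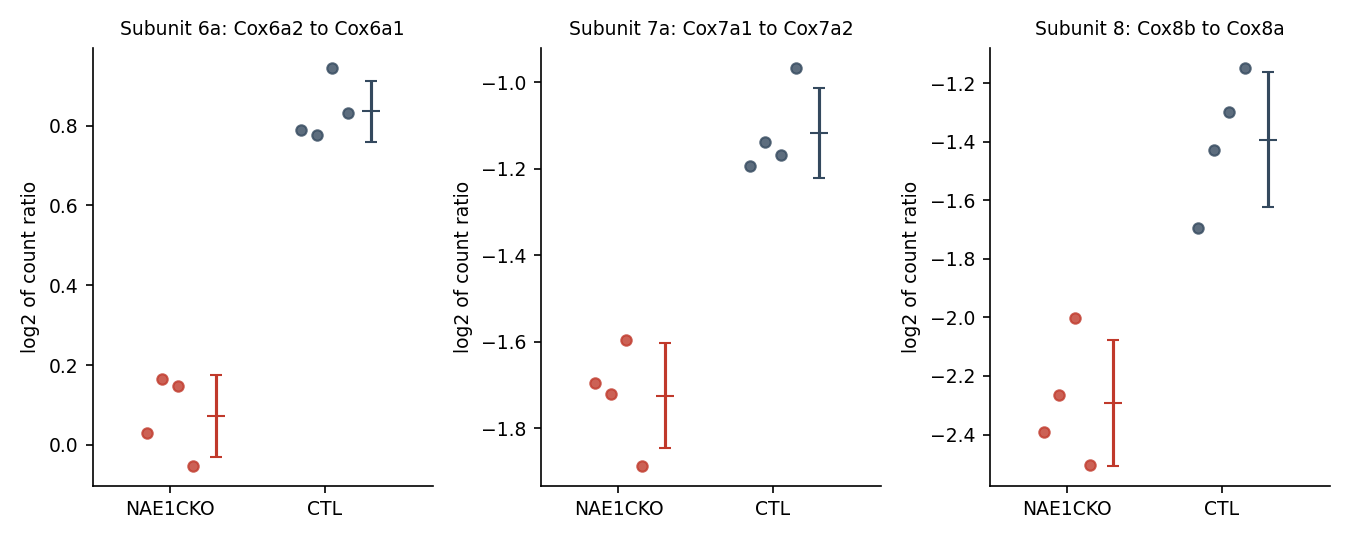
Log2 of the count ratio of heart to liver isoform (y axis, a separate range in each panel) in NAE1CKO (red) and CTL (dark) libraries, each point 1 library, with the mean ± SD beside the points. In each panel all 4 NAE1CKO libraries lie below all 4 CTL libraries, with differences of -0.76, -0.61 and -0.90.

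The other 2 members past 1.5-fold were low in level. Cox4i2, an isoform of subunit 4 known from lung and induced by low oxygen, had 5.87, 4.99, 4.81 and 4.52 CPM in NAE1CKO libraries and 7.12, 7.25, 7.25 and 9.79 CPM in CTL libraries (log2 fold change -0.63 ± 0.142, SE, edgeR, adjusted p = 0.00442). WT-453-5 stood above the other 3 CTL libraries. Its ubiquitous counterpart Cox4i1, the most abundant member of complex IV by CPM in CTL, was at 1000.1 ± 41.6 CPM in NAE1CKO and 1257 ± 109 CPM in CTL (SD, n = 4 each), and the log2 fold change was -0.33. Cox6b2, known as the testis isoform of subunit 6b, had 3.28, 3.10, 3.49 and 2.87 CPM in NAE1CKO and 5.79, 5.41, 5.10 and 5.38 CPM in CTL. Its groups lie apart, with a log2 fold change of -0.77 ± 0.130 (SE, edgeR, adjusted p = 0.000695). The somatic isoform Cox6b1 was at 577 ± 27.4 CPM in NAE1CKO and 671 ± 34.4 CPM in CTL, and the log2 fold change was -0.22 (edgeR, adjusted p = 0.0107), which was not called with scaling by library size alone (edgeR, adjusted p = 0.143).

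The remaining subunits of complex IV, which have no tissue isoform among the members tested, were lower by similar amounts. Cox5a, Cox5b, Cox6c, Cox7b and Cox7c lay between -0.37 and -0.29 on the log2 scale, and Cox7a2l was at -0.30. Cox7c was at only 15.7 ± 1.68 CPM in NAE1CKO and 20 ± 2.59 CPM in CTL (SD, n = 4 each). Its groups overlap, 77.9% of its 50-base words are unique, and its call (edgeR, adjusted p = 0.0241) was lost without WT-443-8, without WT-453-3 and without any NAE1CKO library except KO-453-6 (edgeR, adjusted p = 0.0509 to 0.0785) and with scaling by library size alone (0.0835). The 2 tested members of complex IV that were not called, Cox6a1 and Cox8a, are liver isoforms. The 13 members tested other than the 3 liver isoforms were thus all lower, at a median of -0.35, against 17.6% of all genes tested.

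In complex V, 15 of 17 members were lower, with log2 fold changes from -0.58 to -0.17 and a median of -0.36. These include Atp5sl, at the low end of the range, and Atp5s, which are not subunits. The lowest of the subunits was Atp5k, at -0.46. The catalytic head is built of the products of Atp5a1 and Atp5b, the most abundant members of all by CPM. Atp5b had 4331, 4534, 4452 and 4271 CPM in NAE1CKO libraries and 5572, 5739.7, 5863 and 5388 CPM in CTL libraries, for a log2 change of -0.36 ± 0.0521 (SE, edgeR, adjusted p = 0.000233). Atp5a1 was at 4114 ± 214 CPM in NAE1CKO and 5256 ± 257 CPM in CTL (SD, n = 4 each), at -0.35 on the log2 scale. Atp5c1, the rotating shaft of the head, was at -0.38 and Atp5e at -0.39. Atp5d, the delta subunit of the head, was the exception. It had 891, 956, 974 and 875 CPM in NAE1CKO and 968, 1002, 1132 and 1048 CPM in CTL, where KO-453-6 is above WT-443-7, and was not called at -0.17 (edgeR, adjusted p = 0.0547). Atp5d was called lower under 4 of 20 alternatives, among them without WT-443-7 (edgeR, adjusted p = 0.0385), by DESeq2 (adjusted p = 0.0354) and with scaling by upper quartile (edgeR, adjusted p = 0.037).

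The peripheral stalk holds the head still against the rotor. Its subunit b gene, Atp5f1, had 349, 367, 372 and 329 CPM in NAE1CKO libraries and 448, 469, 509.9 and 501 CPM in CTL libraries (log2 fold change -0.44 ± 0.0605, SE, edgeR, adjusted p = 0.000151). The other stalk genes, Atp5h, Atp5j and Atp5o, were lower by similar amounts, at -0.28, -0.30 and -0.30 on the log2 scale. Atp5f1 and Atp5j overlap antisense exons of Wdr77 and Gabpa among others. Atp5o overlaps a second gene record of the same name, and only 58.4% of its 50-base words are unique, so its count is uncertain.

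The ring of subunit c turns with the passage of protons, and 3 genes with different import signals encode the same mature protein. Atp5g3, the most abundant of them by CPM, had 1394, 1641, 1620.3 and 1353 CPM in NAE1CKO libraries and 1749.9, 1955, 2201 and 1880.0 CPM in CTL libraries (log2 fold change -0.37 ± 0.0840, SE, edgeR, adjusted p = 0.00424). Atp5g1 was at 64.2 ± 7.06 CPM in NAE1CKO and 83.7 ± 9.13 CPM in CTL (SD, n = 4 each), and the log2 fold change was -0.38 (edgeR, adjusted p = 0.0066). Atp5g2 was at 1.10 to 2.26 CPM in NAE1CKO and 1.41 to 2.60 CPM in CTL and was not called (log2 fold change -0.34, 95% interval -0.90 to 0.21, edgeR, adjusted p = 0.326). Only 61.7% of its 50-base words are unique. The ratio of Atp5g1 to Atp5g3 was close to equal between groups, at 0.0427 ± 0.000934 in NAE1CKO and 0.0430 ± 0.00236 in CTL (SD, n = 4 each, two-sided exact permutation test, p = 0.886). The ratio of Atp5g2 to Atp5g3 differed by 0.02 on the log2 scale, with an SD of 0.434 in NAE1CKO and 0.359 in CTL, so that differences below this spread could not be detected (two-sided exact permutation test, p = 0.943). No test of one ratio's difference against another's was run.

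Of the membrane subunits, Atp5k (subunit e, needed for pairing of ATP synthases) was at 282 ± 33.1 CPM in NAE1CKO and 388 ± 51.2 CPM in CTL (SD, n = 4 each), and the log2 fold change was -0.46 (edgeR, adjusted p = 0.00546). Atp5j2 and Atp5l had overlapping groups and weaker calls (log2 fold changes of -0.23 and -0.32, edgeR, adjusted p = 0.0338 and 0.0403). Atp5j2 was not called without KO-443-3, without KO-453-7 and without any CTL library except WT-443-7 (edgeR, adjusted p = 0.0723 to 0.0889), nor Atp5l without KO-443-3, without KO-453-7 and without any CTL library except WT-453-5 (0.0569 to 0.129). Neither was called with scaling by library size alone (0.162 and 0.136). Of the 50-base words of Atp5l, 90.0% are unique, and the rest are shared with transcripts of 642 other genes. Among the members of this group that are not subunits, Atp5sl had the largest fitted decrease of the 17, with 33.3, 37.2, 31.5 and 28.7 CPM in NAE1CKO and 52.1, 49.4, 48.2 and 45.0 CPM in CTL (log2 fold change -0.58 ± 0.0810, SE, edgeR, adjusted p = 0.000187). Atp5s, also called factor B, was at 8.50 ± 0.886 CPM in NAE1CKO and 11.6 ± 1.11 CPM in CTL (edgeR, log2 fold change -0.45, adjusted p = 0.00738).

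The complexes also hold subunits encoded by mitochondrial DNA, of which 6 for complexes III to V are listed and 2 could be tested. mt-Cytb, cytochrome b of complex III, was at 17580.0 ± 803 CPM in NAE1CKO and 23654 ± 418 CPM in CTL (log2 fold change -0.43, edgeR, adjusted p = 9.4e-05). mt-Co1, the catalytic subunit of complex IV, was at 19619 ± 879.6 CPM in NAE1CKO and 25228 ± 1097 CPM in CTL (SD, n = 4 each, log2 fold change -0.36, edgeR, adjusted p = 0.00047). The decrease was thus of the size seen in the nuclear members. mt-Co2, mt-Co3, mt-Atp6 and mt-Atp8 are listed at 0 or 1 count in every library of both groups, although heart cells use these genes, so no comparison was made for them. Among 4 further nuclear subunits with other names that could be tested, Ndufa4, a subunit of complex IV despite its name, was lower (log2 fold change -0.33, edgeR, adjusted p = 0.00531), 2010107E04Rik, a small subunit of ATP synthase, was lower (-0.19, adjusted p = 0.0392), and Usmg5 and Ndufa4l2 were not called (both -0.17).

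Assembly factors put cofactors and subunits into the complexes, and part of them were lower. For complex II, 3 of 4 were lower, among them Sdhaf1, which matures the iron-sulfur subunit, at -0.47, and Sdhaf4, which binds the flavoprotein, at -0.50 on the log2 scale. For complex III, 4 of 6 were lower, led by Uqcc1, which acts on cytochrome b (-0.37), and Lyrm7, a chaperone of the Rieske protein (-0.70). For complex IV, 10 of 21 tested were lower, 1 was higher and 10 were not called, with a median of -0.30. Smim20, which binds newly made subunit 1, was at 39.1 ± 3.24 CPM in NAE1CKO and 57.3 ± 3.12 CPM in CTL (SD, n = 4 each, log2 fold change -0.55, edgeR, adjusted p = 9.75e-05). Coa7, Cox14 and Taco1 were lower at -0.39, -0.46 and -0.47. Cox19, a copper-handling protein named here as the only one higher, was at 33.5 ± 2.32 CPM in NAE1CKO and 27.5 ± 1.05 CPM in CTL (log2 fold change 0.29, edgeR, adjusted p = 0.00698). Over all genes tested, 17.6% were lower and 18.6% were higher. Whether the share of factors called differs from that of subunits was not tested.

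For complex V, 2 of 5 factors were lower and 1 was higher. Tmem70 and Tmem242, which help to form the ring of subunit c, were lower at -0.37 and -0.33 on the log2 scale. Atpif1, the protein that inhibits ATP hydrolysis by ATP synthase, moved against the enzyme. It was at 253 ± 11.0 CPM in NAE1CKO and 199 ± 7.94 CPM in CTL (SD, n = 4 each, log2 fold change 0.35 ± 0.0534, SE, edgeR, adjusted p = 0.000338), while none of the 17 members of complex V was higher.

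Of 14 regulators of mitochondrial genes, 6 were lower and 8 were not called, against 17.6% lower over all genes tested. Ppargc1a, a coactivator that drives mitochondrial gene expression, was at 123 ± 15.7 CPM in NAE1CKO and 176 ± 13.7 CPM in CTL (SD, n = 4 each, log2 fold change -0.52, edgeR, adjusted p = 0.000855). Its partner Esrra was at 114 ± 2.46 CPM in NAE1CKO and 149 ± 16.4 CPM in CTL (log2 fold change -0.39, edgeR, adjusted p = 0.00144), and Ppara, a receptor that controls fatty acid oxidation, was at 16.3 ± 3.83 CPM in NAE1CKO and 33.6 ± 8.07 CPM in CTL (log2 fold change -1.04, edgeR, adjusted p = 0.00471). Gabpa, whose exons overlap Atp5j on the other strand, was lower at -0.20. Of 17 other mitochondrial proteins, 6 were lower, 1 was higher and 10 were not called, with a median of -0.18. The ADP/ATP carrier gene Slc25a4 was at 3806 ± 189 CPM in NAE1CKO and 5281 ± 325 CPM in CTL (log2 fold change -0.47, edgeR, adjusted p = 0.000106). Immt and Chchd3, which shape the cristae, were lower at -0.33 and -0.40, and Tomm20, a receptor for protein import, was higher at 0.39 (edgeR, adjusted p = 0.000363).

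**Figure D5:**
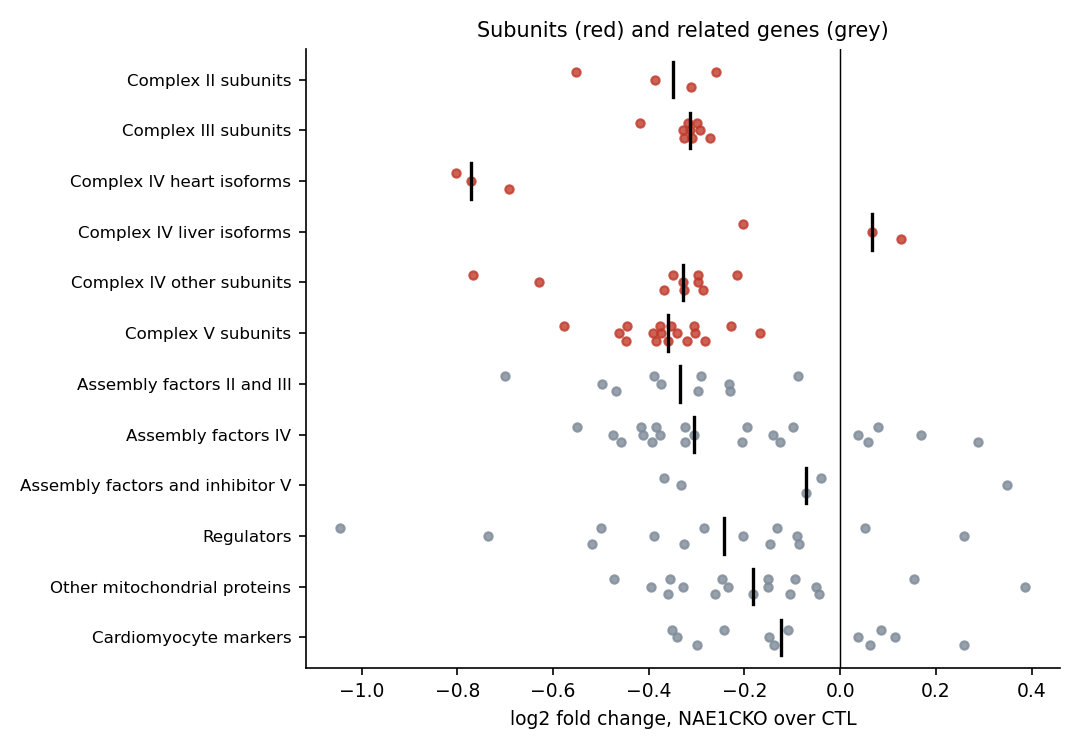
Log2 fold change of NAE1CKO over CTL (x axis) for the members by complex and isoform (red) and for lists of related genes (grey), each point 1 gene tested, with a black line at the median of a list. The heart isoforms have a median of -0.77 and the members of complex V one of -0.36, while other mitochondrial proteins have one of -0.18 and the cardiomyocyte markers one of -0.12. The members of complex V include Atp5s and Atp5sl, which are not subunits.

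The heart isoforms Cox7a1 and Cox8b are also made in skeletal muscle and brown fat. The brown fat markers Ucp1 and Elovl3 and the skeletal muscle markers Myod1 and Tnnc2 were at 0 counts in every library. Of the 3 brown fat markers tested, Cidea was lower (log2 fold change -0.62, edgeR, adjusted p = 0.0288), Dio2 was higher (0.59, adjusted p = 0.00578) and Prdm16 was not called. The summed brown fat list was at 77.8 to 85.6 CPM in NAE1CKO and 76.6 to 106 CPM in CTL. The skeletal muscle list was at 1042 to 1432 CPM in NAE1CKO and 1952 to 2252 CPM in CTL, and most of it is Ckm, muscle creatine kinase, which the heart also makes, at 1182 ± 149.7 CPM in NAE1CKO and 2033 ± 125 CPM in CTL (SD, n = 4 each). Ckm was called lower, and Tnnt3, Mylpf and Acta1 of this list were not called.

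The promoters were searched on both strands for 7 short motifs. Matches to GCATGCGC, the site of NRF1, were in 8 of 42 windows of members (19.0%), against 4.9% of 13237 windows of all genes tested. CCGGAAG, the site of ETS factors and of GABPA, was in 28.6% of members' windows, against 16.4%. AAGGTCA, read by the ERR receptors, was in 11.9%, against 3.2%. AAGATGGC, read by YY1, was also in 11.9%, against 4.1%. ACGTG, the core that HIF reads, was in 35.7%, against 25.0%. CAGCTG, an E-box of MyoD type, was in 4.8%, against 15.7%, and TAAAAATA, one form of the MEF2 site, was in 0 windows, against 1.3%. These shares are descriptions of windows, some of which belong to the same gene.

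Among the isoforms shown above, the NRF1 and ETS motifs were found in windows of liver isoforms and in 0 of the heart isoforms matched. Cox6a1 has 2 overlapping NRF1 matches that begin 162 and 160 bases before the start site and an ETS match that begins 16 bases before it. Cox8a has ETS matches that begin 5 bases before the start site and at base 33 after it, and Cox7a2 has none of the 7 motifs. The heart isoform Cox7a1 has 1 ACGTG match, beginning at base 10 after the start site. Cox8b has ACGTG matches that begin 111 bases before the start site and at base 43 after it, and CAGCTG matches that begin 19 bases before it and at base 17 after it. Of the factors that read these motifs, Esrra and Gabpa were lower, at -0.39 and -0.20 on the log2 scale (edgeR, adjusted p = 0.00144 and 0.00728). Nrf1, Yy1 and Hif1a were not called between groups (log2 fold changes of -0.09, -0.09 and 0.26, edgeR, adjusted p = 0.391, 0.303 and 0.0522). Neither were the ERR genes Esrrb and Esrrg (-0.29 and -0.15, edgeR, adjusted p = 0.294 and 0.07), Gabpb1 (0.05, edgeR, adjusted p = 0.729) or Mef2c (0.11, edgeR, adjusted p = 0.178). Myod1 was at 0 counts. These values are of RNA and do not show the amount or activity of the proteins. For HIF1α the authors report that the protein accumulated in NAE1-deficient hearts while its RNA did not change.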

How the data were processed

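Polyadenylated RNA of ventricles from 4 NAE1CKO and 4 CTL mice was sequenced as 1 library each. The values that the authors deposited are counts of reads for each Ensembl gene, not normalized. As tools, the submitters' processing notes list featureCounts 1.4.5 of Subread, STAR 2.0.4b and bcl2fastq. The build, the annotation and the use of strand in counting were not given in the sources used here. Of 41264 lines in the table, 574 are repeats of a gene with equal counts, which leaves 40690 genes. GENCODE M21 (GRCm38) gave positions, exon lengths and overlaps.

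Groups came from titles and genotype labels. Replicates differed by more than sampling noise (chi-square per gene 4.22 to 71.2), and no source used here says which libraries share a litter. Pairs with WT-453-5 were at 63.2 to 71.2, and pairs without it at 4.22 to 17.9. Low counts were filtered with filterByExpr of edgeR 4.0.16 (R 4.3.3), which also gave TMM scaling and the robust quasi-likelihood test over 13622 genes, with Benjamini-Hochberg adjustment and calls at 0.05, and was tested on simulated data. CPM are scaled by TMM, and per kilobase values divide by exon length. Isoform ratios used raw counts and two-sided exact permutation tests over 70 arrangements. Unique words are 50-base words of a gene's transcripts found in no transcript of another gene, on either strand. Alternatives were other scalings and filters, DESeq2 1.42.0, voom in limma 3.58.1, other gene sets, the title number as a block and each library left out. The alternative without Gm42418 was chosen after seeing the data.

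The members and the lists were chosen with earlier results of these data known. The text names the isoforms, the subunit c genes, members not called, the 3 members with the smallest adjusted p and the most and least abundant in each complex, and up to 4 genes of each other list. Outside this rule, Cox19 and the marker genes were named after their values were seen. Nrf1, Yy1, Hif1a, Esrrb, Esrrg, Gabpb1, Mef2c and Myod1 were named as readers of the motifs searched, and every listed mitochondrially encoded subunit was named.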

Additional observations from a re-analysis of the deposited data

Results flagged for a closer look

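In groups of 4 libraries, a value was looked at again where its gap to the nearest other value was most of the group's range (Dixon's test at 95%). Of 104 groups checked, 2 met this, where chance gives about 5.2. Cox4i2 was at 9.79 CPM in WT-453-5, against 7.12 to 7.25 CPM in the other 3 CTL libraries. Atp5j2 was at 365 CPM in WT-443-7, against 414 to 422 CPM in the other 3 CTL libraries.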

How the results depend on the processing

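The count of members lower in NAE1CKO was 42, and 36 to 44 under the alternatives that kept all libraries. It was lowest under scaling by library size alone and highest with the title number as a replicate block. Of all genes tested, 2401 were lower in the main fit, 1532 under that scaling and 2713 with that block. The median of the members minus that of all genes was -0.327, -0.327 and -0.328 in the same order. With 1.5-fold added to the adjusted p, the count of members lower was 5. The count of members higher was 0, but 1 (Cox8a) under scaling by library size alone and 1 (Cox8a) with the title number as a replicate block. That block called Cox8a higher (log2 fold change 0.13, edgeR, adjusted p = 0.0458) and Atp5d (-0.16, adjusted p = 0.0374) and Cycs (-0.34, adjusted p = 0.0449) lower. With 1 library left out, 38 to 43 members were lower and 0 higher, and the median log2 fold change lay between -0.36 and -0.29. The title number is not stated to mark a litter or batch. Deviations from the group means correlated at 0.0986 on average between libraries of different genotype and the same number. Since such deviations sum to 0 within a group, the average of -0.0986 with different numbers is nearly fixed by the first and is no separate result. Of 42 members called, 36 were called under all 20 alternatives, and of the 5 not called, 2 (Cox6a1 and Atp5g2) were called under none of them. Over the 940 results of the 47 members 25 lost a call, 9 gained one and 0 changed direction with a call. With 1 library left out, the difference in log2 ratio of heart to liver isoform lay between -0.80 and -0.72 for subunit 6a, -0.65 and -0.55 for 7a and -0.999 and -0.817 for 8. Since these groups do not overlap, the exact permutation p is then fixed at 0.0286, the smallest for 3 against 4 libraries. The members tested with the lowest CPM were Atp5g2, Cox6b2, Cox4i2, Atp5s, Cycs, Atp5l and Cox7c. Their standard errors were 0.108 to 0.256 on the log2 scale, and that of Cox8b, at a higher CPM, was 0.126. Of the 50-base words of Atp5g2, Cycs, Atp5l and Cox7c, 61.7%, 73.9%, 90.0% and 77.9% are unique. How reads of shared words were counted is not known, so a low CPM of these genes need not mean low expression. The part of depth or of shared sequence in these standard errors was not tested.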
